A study of Mus musculus with 12 samples.

Results

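The sites described here are the Rev-Erbα binding sites of brown adipose tissue that lie in transcribed sequence outside introns or at a transcript's end. They are the peaks of the 4 °C list that the authors annotated as exon, 3' UTR, 5' UTR, TTS (transcript end) or non-coding (an exon of a non-coding transcript). They number 452 of the list's 11227 peaks, and the same 5 classes hold 71 of the 2183 peaks of the 29 °C list. The study mapped Rev-Erbα by chromatin immunoprecipitation and sequencing in C57BL/6 mice housed for 1 week in chronic cold (4 °C) or at thermoneutrality (29 °C). HA-RevErba mice, in which Rev-Erbα carries an HA tag, gave 4 libraries per temperature. Untagged wild-type (WT) mice went through the same pull-down on HA magnetic beads and supplied 2 background libraries per temperature. The sources used here give neither the making of the tagged allele nor the age or sex of the mice. The files hold no RNA levels, so the tissue was not checked against marker genes.

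Rev-Erbα, the product of Nr1d1, is a nuclear receptor that represses transcription by recruiting the NCoR-HDAC3 corepressor complex. It binds the core motif AGGTCA preceded by an A/T-rich stretch, a site it shares with the activating ROR receptors, and its best known target is the clock activator gene Arntl. In brown fat it is known to link the clock to heat production, through repression of Ucp1. A peak inside an exon or beyond a transcript's end marks where the receptor was found on DNA, and does not by itself name the gene that it acts on.

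The highest-scoring of the 452 sites lay in the 5' UTR of Arntl, 137 bases past the authors' nearest start, and its promoter sequence is shown because it carries the receptor's motif. Of 18 sites within 300 bases of a start, 12 belonged to genes with 1 or more promoters in the RefSeq table (build GRCm38.p6, 250 bases before to 50 after each start), 15 promoters in all. The motif AGGTCA, searched on both strands, was in 5 of these 15, against 16.3% of all 32851 promoters in the table. With a T before it (TAGGTCA), which makes this match a subset of the other, it was in 1 of the 15, that of Arntl, against 2.61% of all promoters. A direct repeat of AGGTCA with any 2 bases between the copies was in none of the 15, against 3 of all 32851 promoters (0.00913%). It is too rare for its absence from 15 promoters to say anything about them. The 5 matches follow, 5′ to 3′, with AGGTCA in capitals.

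Arntl, base 282 to 287 of the window that ends 50 bases after 1 of its starts, same strand as the gene: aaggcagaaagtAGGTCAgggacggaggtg

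5430425K12Rik, a non-coding RNA gene, base 196 to 201, same strand: atactaacataaAGGTCAtcagataaaaat

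Arsa, the arylsulfatase A gene, base 252 to 257, opposite strand: taacacaggctcAGGTCAggagcagacaac

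Mrgpre, a G protein-coupled receptor gene, base 220 to 225, same strand: ggagagcccgcgAGGTCAttgctgggcgtg

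Nin, the ninein gene, base 212 to 217 of 1 of 3 alternative promoters, opposite strand: acaggttgggacAGGTCAcaattggacgga

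In these lines only Arntl has a T directly before the capitals, and the run aaagtAGGTCA is A-rich on its 5′ side. At 5430425K12Rik the bases before the capitals were also A- and T-rich. The promoter windows are of another genome build than the peaks, so whether a match lies inside a peak window was not determined. The HA-RevErbα density in the peak windows of these genes was 43.14 FPKM at Arntl, 8.71 at Nin, 8.32 at 5430425K12Rik, 7.62 at Arsa and 4.01 at Mrgpre in the 4 °C pool. A match in a promoter is a description of its letters and not a mapped site. The last 4 genes were picked for their match, after their values were seen.

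All densities are from pools, 1 for each genotype and temperature, so no value has a replicate check and no p-value was made. FPKM here counts reads for each kilobase of a 200-base peak window and each M of reads in the pool (M for mega). It is a density of pulled-down DNA and not a level of RNA. The pools held 63.8 M reads (HA-RevErbα 4 °C), 60.8 M (HA-RevErbα 29 °C), 27.1 M (WT 4 °C) and 25.1 M (WT 29 °C), fewer than their libraries together, since each of the 12 libraries had 27.0 to 37.3 M aligned reads. The sources used here do not say how reads were left out. Intervals are exact 95% Clopper-Pearson intervals, which cover counting error only. In a tissue, fewer cells with bound receptor and less receptor per cell cannot be told apart. Every 4 °C peak exceeded its WT value by at least 3 FPKM and 3.99 times, and every 29 °C peak by at least 3.01 FPKM and 3.97 times. Windows chosen for high signal at one temperature favour that temperature in a ratio. The limit against WT likewise favours windows with low WT at the list's own temperature. A scaling by WT reads over listed windows carries this selection.

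The 5 classes made up 4.03% of the 4 °C list (interval 3.67 to 4.41) and 3.25% of the 29 °C list (2.55 to 4.09). At 4 °C they comprised 144 TTS sites (1.28% of the list), 131 sites in a 3' UTR (1.17%), 120 in exons (1.07%), 39 in non-coding transcripts (0.347%) and 18 in a 5' UTR (0.160%). At 29 °C the counts were 27 (1.24%), 21 (0.962%), 13 (0.596%), 7 (0.321%) and 3 (0.137%). The exon class had the widest gap between the lists, 1.07% (0.887 to 1.28) against 0.596% (0.318 to 1.02), and even these intervals overlapped. Introns (47.8% and 48.0%) and intergenic DNA (44.3% and 45.7%) held most peaks of both lists.

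**Figure D1:**
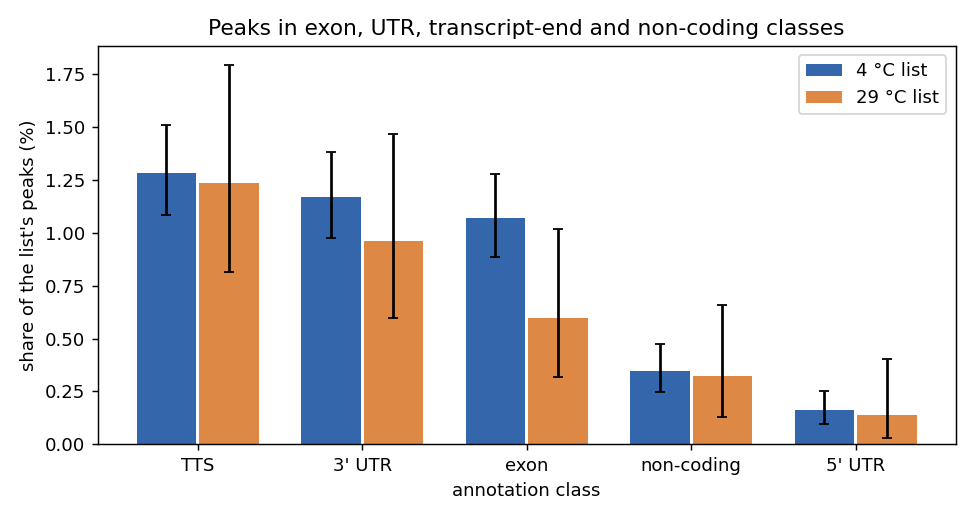
Share of each list's peaks (vertical axis, %) in the 5 annotation classes (horizontal axis), for the 4 °C list in blue and the 29 °C list in orange; error bars are exact 95% intervals. The bars of TTS, non-coding and 5' UTR sites are close between lists (1.28% and 1.24% for TTS), and the exon bars differ most (1.07% and 0.596%).

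Signal at the members was close to that of the other classes. The median HA-RevErbα density over the 452 windows was 6.91 FPKM in the cold and 2.31 at thermoneutrality, against 1.12 and 1.21 in the WT pools. Over the 10775 intron, intergenic and promoter-TSS peaks these medians were 7.07, 2.39, 1.12 and 1.21 FPKM. Among the classes the 4 °C median was lowest in 3' UTR sites (6.20 FPKM) and exons (6.56), and highest in TTS (7.42) and non-coding sites (7.85). The upper tail was shorter: the 90th percentile was 12.86 FPKM for the members and 14.75 for the other peaks. It was 11.32 in exons and 18.03 in non-coding sites.

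The 4 °C to 29 °C ratio was 2 or more at 393 of the 452 members, or 86.9% (83.5 to 89.9), where 83.4% of all 4 °C windows reached it. The share is thus near that of the whole list. Its median was 3.13 over the members and 3.04 over the other classes, and by class 3.29 in exons, 3.27 in 3' UTRs, 3.02 at TTS sites, 3.0 in 5' UTRs and 2.77 in non-coding sites. The counting interval lay above 1 at 437 members (95.4% of all windows), included 1 at 14 and lay below 1 at 1 (0.41% of all windows). At 29 °C 379 of the 452 windows had more HA-RevErbα than WT signal (86.2% of all 4 °C windows had), and 44 were at least 3 FPKM above WT and at 4 times WT or more there (13.6% of all). The size of the ratio depended on how the pools were scaled: when summed WT reads over shared windows were made equal, the median fell to 2.17 and 267 members (59.1%) stayed at 2 or more, against 55.5% of all windows. With WT density subtracted the median was 4.58 over the 379 windows where that could be done.

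**Figure D2:**
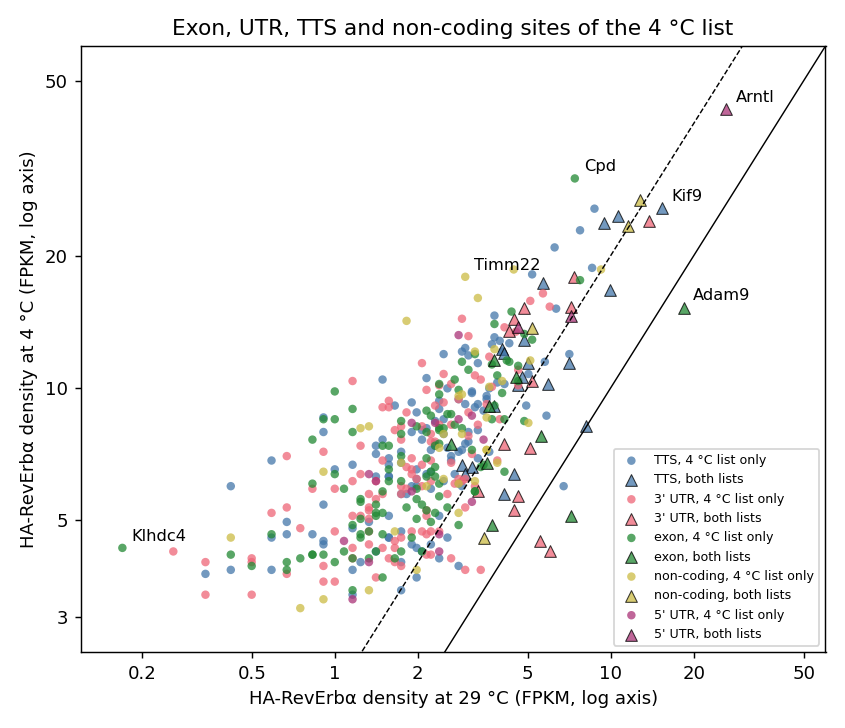
HA-RevErbα density of each of the 452 sites at 29 °C (horizontal, FPKM, log axis) and at 4 °C (vertical, FPKM, log axis), coloured by class; triangles overlap a 29 °C peak, the solid line marks equal values and the dashed line a ratio of 2. Most points lie above the dashed line (393 of 452), Arntl stands at the top right with 43.14 and 26.24 FPKM, and Adam9 lies below the solid line with 15.22 and 18.43.

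The 18 sites in a 5' UTR all lay within 0.647 kb of a start, and 17 were in the first of several exons. The Arntl site (chromosome 7, 120351016 to 120351216, exon 1 of 17) had 43.14 FPKM in the cold and 26.24 at thermoneutrality, against 0.75 and 2.20 in the WT pools. Its ratio of 1.64 (1.43 to 1.89) was the smallest of the class. With summed WT reads made equal over all 29 °C windows, which were selected against WT at 29 °C, it became 0.964. Arntl thus had the strongest signal of the members at both temperatures. Next by score was Srgap3, with 14.60 and 7.16 FPKM (WT 0.93 and 0.81), a ratio of 2.04 (1.57 to 2.66). Vwa3a had 13.73 and 4.62 FPKM (WT 2.77 and 0.81). These 3 sites were also the 3 peaks of this class at 29 °C. Arhgap24 had 13.18 FPKM in the cold and 2.81 at thermoneutrality, below the WT value of 3.20 there, so its ratio of 4.71 (3.24 to 7.03) rests on a 29 °C value at background. At Scd1, the stearoyl-CoA desaturase gene, the 5' UTR site had 5.50 and 3.14 FPKM (WT 1.12 and 0.21), a ratio of 1.76 (1.17 to 2.68). This ratio became 1.03 with WT reads equal over all 29 °C windows.

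Of the 120 exon sites, 85 were in internal exons, 28 in last exons, 4 in the first of several exons and 3 in the exon of a single-exon gene. The transcripts had a median of 13 exons. The strongest exon site was in exon 13 of 21 of Cpd, the carboxypeptidase D gene (chromosome 11, 76608901 to 76609101). It had 29.96 FPKM in the cold and 7.41 at thermoneutrality, against 1.67 and 2.20 in WT, a ratio of 4.05 (3.21 to 5.15). It was absent from the 29 °C list with a 29 °C density over 3 FPKM above WT and under 4 times WT. Ppdpf (exon 3 of 5) had 17.58 and 7.74 FPKM (ratio 2.27, 1.78 to 2.92) and Lamb3, a laminin chain gene (exon 6 of 23), 14.91 and 4.37 FPKM (3.42, 2.51 to 4.73). Exon 15 of 23 of Adam9, a membrane metalloprotease gene, went the other way. This site (chromosome 8, 26083435 to 26083635) had 15.22 FPKM in the cold and 18.43 at thermoneutrality, against 0.93 and 1.21 in WT, a ratio of 0.826 (0.678 to 1.01) whose interval includes 1. In the 29 °C list the window is shifted slightly and the ratio there was 0.811 (0.667 to 0.987). Internal exons overlapped a 29 °C peak at 8 of 85 sites (9.41%, 4.15 to 17.7), and last exons at 0 of 28, with an upper bound of 12.3% by the same exact interval.

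Of the 131 sites in a 3' UTR, 126 were in the last of several exons and 5 in single-exon genes. The strongest was in Fam228a (exon 8 of 8, chromosome 12, 4721740 to 4721940), with 23.93 FPKM in the cold and 13.74 at thermoneutrality, against 1.12 and 0.81 in WT. Its ratio was 1.74 (1.44 to 2.12), and it led this class in both lists. The 3' UTR of Pgm5, a phosphoglucomutase-like gene, had 17.89 and 7.33 FPKM (WT 2.22 and 0.81), a ratio of 2.44 (1.90 to 3.16). Ppp1r3d, which encodes a subunit that brings protein phosphatase 1 to glycogen, had 15.77 and 5.11 FPKM (3.09, 2.32 to 4.18). With pools scaled by their reads these 3 sites were higher at 4 °C beyond counting error, and Fam228a had the smallest ratio of them. With WT reads equal over all 29 °C windows the ratios were 1.02 at Fam228a, 1.43 at Pgm5 and 1.81 at Ppp1r3d.

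The 144 TTS sites formed the largest class. Their transcripts were of protein-coding genes at 121 sites, of long non-coding RNAs at 12, of miRNAs at 9 and of a pseudogene at 1, with 1 not matched. The strongest was at the end of Kif9, a kinesin gene (chromosome 9, 110428252 to 110428452), with 25.65 FPKM in the cold and 15.39 at thermoneutrality, against 1.48 and 1.60 in WT (ratio 1.67, 1.39 to 2.01). Divided by the WT factor of all 29 °C windows, which were selected against WT at 29 °C, this became 0.977. The end of the long non-coding RNA gene Gm15441 followed, with 25.57 and 8.73 FPKM and the highest WT values of the members, 4.80 and 4.59 FPKM (ratio 2.93, 2.35 to 3.69). The end of Gm10787, also a non-coding RNA gene, had 24.63 and 10.62 FPKM (WT 3.51 and 2.0, ratio 2.32, 1.88 to 2.87). Tpra1, a membrane protein gene, had 23.69 and 9.47 FPKM (WT 2.22 and 1.60, ratio 2.5, 2.01 to 3.13). Kif9, Gm10787 and Tpra1 had peaks in both lists and Gm15441 did not.

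Among the 39 non-coding sites, 28 were in transcripts of long non-coding RNA genes and 10 in non-coding transcripts of protein-coding genes. The last of several exons held 26 of them. F630111L10Rik, a single-exon RNA, had 26.75 FPKM in the cold and 12.76 at thermoneutrality, against 1.48 and 2.40 in WT (chromosome 3, 58954665 to 58954865, ratio 2.1, 1.73 to 2.55). A non-coding transcript of Selenoi, the ethanolamine phosphotransferase gene, had 23.38 and 11.52 FPKM (WT 0.93 and 2.40, ratio 2.03, 1.66 to 2.5). One of Bmf, a pro-apoptotic BH3-only gene, had 18.59 and 9.22 FPKM (WT 3.14 and 2.80), and that of Spns1, a lysosomal lipid transporter gene, 18.59 and 4.45 (WT 4.06 and 3.40). Bmf and Spns1 thus had equal density at 4 °C and ratios of 2.02 (1.61 to 2.55) and 4.19 (3.10 to 5.73). With WT density subtracted the ratio at Spns1 was 13.8, and it was 2.45 with WT reads equal over all 29 °C windows.

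**Figure D3:**
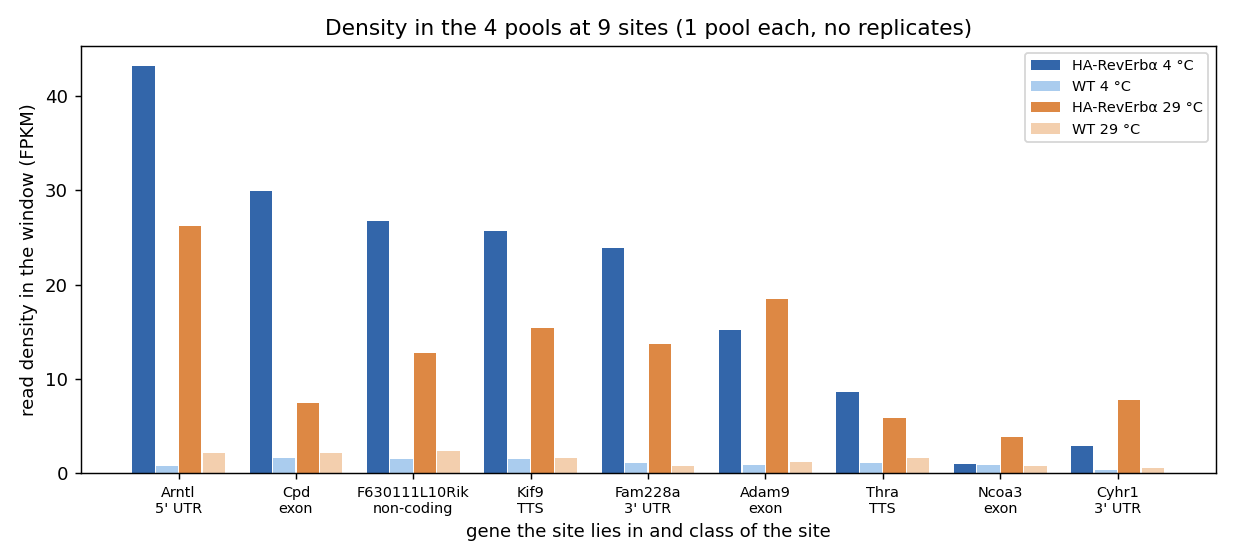
Read density (vertical axis, FPKM) in the pools of HA-RevErbα 4 °C, WT 4 °C, HA-RevErbα 29 °C and WT 29 °C at 9 sites named by the gene they lie in (horizontal axis), each bar being 1 pool without error. The first 5 and Thra are higher in the HA-RevErbα 4 °C pool than at 29 °C, and Adam9 (15.22 and 18.43), Ncoa3 (0.95 and 3.88) and Cyhr1 (2.91 and 7.82) have the lower value at 4 °C.

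The largest ratios among the 321 members with at least 20 reads in both HA-RevErbα pools were in non-coding and 3'-end sequence. They were 7.84 (5.03 to 12.8) at the RNA gene 6530402F18Rik and 6.04 (4.24 to 8.84) in a non-coding transcript of Timm22, a gene of the mitochondrial import machinery. Tnfsf15, which encodes a TNF-family cytokine, and the end of Nol4l both had 5.53 (3.60 to 8.83 and 3.42 to 9.39), and the endocytic scaffold gene Itsn1 had 4.99 (3.46 to 7.38). At 6530402F18Rik the 29 °C pool had 1.82 FPKM against 2.80 in WT, and at Timm22 2.97 against 0.81. None of these 5 sites was in the 29 °C list. The smallest ratios were 0.705 (0.487 to 1.02) at the Myc-family gene Mycl, 0.712 (0.508 to 0.994) at Rtl9, 0.811 (0.560 to 1.17) at Ppp1r16a, that of Adam9, and 0.884 (0.638 to 1.22) at Jade1. Of these 5, Rtl9 alone had an interval below 1. With fewer reads the ratio is loose: at Klhdc4, picked after its value was seen, it was 26.2 (6.92 to 222) on 55 and 2 reads.

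Peaks of the 29 °C list overlapped 50 of the 452 members by at least 1 base, or 11.1% (8.32 to 14.3), where 14.9% of all 4 °C peaks and 15.0% (14.4 to 15.7) of the other classes were overlapped. By class the share was 16.7% in 5' UTRs (3 of 18), 13.9% at TTS sites (20 of 144), 10.7% in 3' UTRs (14 of 131), 10.3% in non-coding sites (4 of 39) and 7.5% in exons (9 of 120). Over the other classes overlap rose with peak score, and of 4 score bands, each with a near equal number of 4 °C peaks, the top one held fewer of the members (19.7% of members, 25.03% of other peaks). Within the lower 2 bands the members' share was 3.70% and 7.94% against 3.28% and 6.54% of other peaks. In the upper 2 it was 6.98% (3.24 to 12.8) against 12.9% (11.6 to 14.2), and 30.3% (21.0 to 41.0) against 37.5% (35.7 to 39.4). No test of this difference was made, because peaks of 1 pooled list are not replicates. The 50 shared members had a median ratio of 2.07, and 27 reached 2. The 402 others had a median of 3.29. The grouping itself favours this gap, since an overlap needs a 29 °C signal high enough for that list. The same values over all shared 4 °C peaks are not given here. In 49 of the 50 the 29 °C peak had the same class, the exception being Mfrp, an exon site whose 29 °C window, 50 bases away, was annotated as intron.

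**Figure D4:**
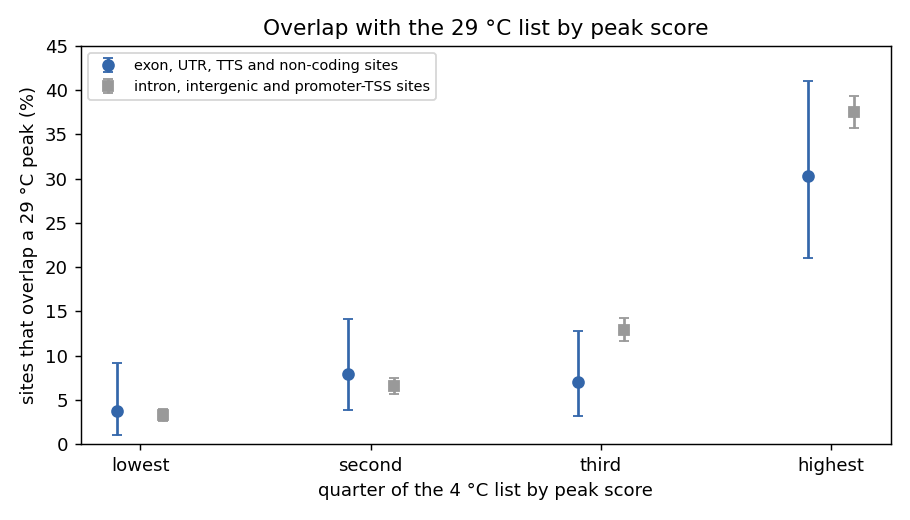
Share of 4 °C peaks that overlap a 29 °C peak (vertical axis, %) by peak score, from the lowest to the highest of 4 near equal bands (horizontal axis), for the 452 members (blue circles) and the other classes (grey squares); error bars are exact 95% intervals. The share of the other classes rises from band to band, while that of the members is 7.94% in the second band and 6.98% in the third. In the upper bands the member share is 6.98% against 12.9% in the third band and 30.3% against 37.5% in the highest.

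Of the 71 sites of these classes in the 29 °C list, 51 overlapped a 4 °C peak, or 71.8% (59.9 to 81.9), where 76.5% of all 29 °C peaks did. Over the 71 the ratio of 4 °C to 29 °C had a median of 1.66. It was 2 or more at 25 of them (35.2%, where 31.5% of all 29 °C windows reached it), its interval lay above 1 at 48 (66.8% of all 29 °C windows) and below 1 at 7 (7.74%). The median turned to 0.970 when WT reads were made equal over all 29 °C windows. That scaling is taken from windows listed for exceeding WT at 29 °C, which favours low WT there. Its factor was 1.71, against 1.02 over all 4 °C windows, so the turn does not show a direction. The 20 sites with no 4 °C peak had medians of 6.52 FPKM in the cold and 4.74 at thermoneutrality, against 2.13 and 0.81 in WT. So most of them were not short of HA-RevErbα signal at 4 °C: 15 were at least 3 FPKM above WT there, while 5 were at 4 times WT or more and 2 met both limits. WT was higher at 4 °C than at 29 °C at 18 of the 20. Their selection favours this, since they met the 29 °C limits against WT and lack a 4 °C peak. Shares over all 29 °C peaks without a 4 °C peak are not given here. The counts over these 20 thus say nothing particular about the members. The interval of the ratio lay above 1 at 9, included 1 at 8 and lay below 1 at 3.

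Those 3 sites were in Cyhr1, Kcna2 and Ncoa3. The 3' UTR site of Cyhr1 (chromosome 15, 76474841 to 76475041) had 2.91 FPKM in the cold and 7.82 at thermoneutrality, against 0.38 and 0.61 in WT (ratio 0.371, 0.247 to 0.548). Kcna2, a potassium channel gene, had 3.30 and 6.59 FPKM in its 3' UTR, against 0.38 and 1.01 (ratio 0.501, 0.336 to 0.736). Exon 12 of 23 of Ncoa3, which encodes a coactivator of nuclear receptors, had 0.95 and 3.88 FPKM against 0.93 and 0.81 (ratio 0.243, 0.118 to 0.466). Ncoa3 was therefore at the WT level at 4 °C, which Cyhr1 and Kcna2 were not. Kcna2 and Ncoa3 were chosen after their values were seen.

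The gene a member lies in was often not the gene the authors' files name for it, which is that of the nearest start. The transcript in the annotation could be matched to a RefSeq gene (table of assembly GRCm38.p6, used for names only) at 450 of the 452 sites. The nearest start belonged to that same gene at 255, or 56.7% (51.9 to 61.3). The share was 38.9% (30.5 to 47.8) for 3' UTR sites, 55.2% (46.7 to 63.6) for TTS sites, 66.4% (57.2 to 74.8) for exons and 71.8% (55.1 to 85.0) for non-coding sites. It was 72.4% (71.1 to 73.5) for introns of the 4 °C list. For all 18 sites in a 5' UTR it was the same gene. At 116 of the 195 sites with different genes, the site lay upstream of the other gene's start, and at 65 it did so by less than 10 kb. Among introns of the 4 °C list, 854 of 1479 such sites lay upstream, 172 of them by less than 10 kb. The upstream share was thus similar to that of introns, and the share within 10 kb was larger.

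**Figure D5:**
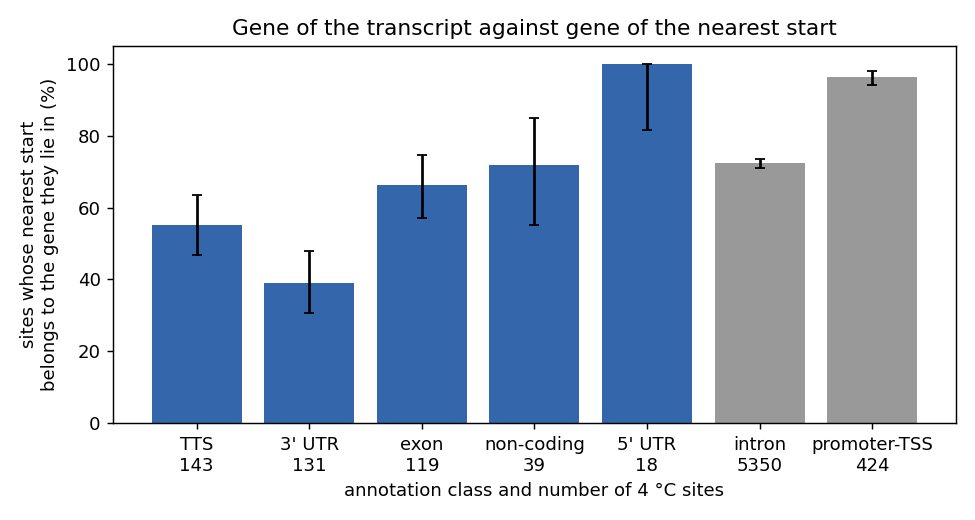
Share of 4 °C sites (vertical axis, %) whose nearest start belongs to the gene of the transcript they lie in, by class with the number of matched sites (horizontal axis), members in blue and introns and promoter-TSS in grey; error bars are exact 95% intervals. Agreement is lowest in 3' UTRs (38.9%), between these and introns at TTS sites and exons, and near complete in promoter-TSS peaks (96.5%).

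Many of the strongest members were of this kind. The Cpd exon was listed under Gosr1, a Golgi transport gene (-31.9 kb), and the end of Kif9 under Setd2, the histone H3K36 methyltransferase gene (-6.75 kb). The end of Gm15441 was listed under Txnip, which encodes an inhibitor of thioredoxin and glucose uptake (-2.58 kb), and that of Gm10787 under Slc19a1, a folate carrier gene (-10.1 kb). F630111L10Rik was listed under the receptor gene P2ry14, Selenoi under Drc1, Pgm5 under Tmem252, Adam9 under Adam32 and Ppp1r16a under Gpt, an alanine aminotransferase gene. These distances run from the start of the listed gene to the site, and a negative one is upstream. The 195 sites with different genes and the 255 with the same gene had close medians, 6.44 and 7.22 FPKM at 4 °C and ratios of 3.0 and 3.15. A 29 °C peak overlapped 14.4% (9.76 to 20.1) of the former and 8.63% (5.49 to 12.8) of the latter.

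Apart from the 5' UTR class most members lay more than 1 kb from the nearest start. Exceptions within 1 kb were 10 TTS, 5 exon and 4 non-coding sites. Within 1 kb of the nearest start were 37 of the 452, at 1 to 10 kb 196, at 10 to 50 kb 170 and beyond 50 kb 49. The median distance was 9.59 kb for the members, 24.4 kb for introns and 40.03 kb for intergenic peaks. Over all 3 other classes, promoter-TSS included, it was 28.55 kb. The 18 sites within 300 bases of a start had 3.30 to 43.14 FPKM at 4 °C with a median of 8.32, and ratios of 1.61 to 4.83. Besides genes named above they included the ETS-family gene Elk3 (8.32 and 2.31 FPKM), the butyrylcholinesterase gene Bche (5.81 and 1.90) and the signalling adaptor gene Ywhaq (4.48 and 1.08), picked after their values were seen. Another 4 °C peak lay within 10 kb of 161 members, or 35.6% (31.2 to 40.2), and of 40.9% (39.9 to 41.8) of the other peaks.

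The 7 lists of clock and metabolic genes hold 158 names, of which 157 matched the RefSeq table. As the gene a peak lies in or the gene of the nearest start, they were linked to 432 of the 4 °C peaks of any class. Of these peaks 11 were members, or 2.55% (1.28 to 4.51), an interval that includes the 4.03% of the whole list, so the count says nothing particular about these genes. The 11 members were linked to 9 genes. By nearest start, 17 of 23 genes of the core clock and its outputs had a 4 °C peak of any class, and 3 had a member. None of 25 thermogenesis genes, 19 genes of glucose use, 15 adipocyte transcription factors and 11 matched corepressor and partner genes had a member, while 16, 12, 14 and 6 of them had a peak of any class. The 11 members had a median ratio of 3.10, and 7 (63.6%) reached 2, against 83.4% of all 4 °C windows.

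In the clock list the end of Bhlhe41, which encodes the clock repressor DEC2, had 12.09 FPKM in the cold and 2.89 at thermoneutrality, against 1.48 and 1.41 in WT (ratio 4.20, 2.89 to 6.24). The third clock member beside Arntl lay at the end of Thra, the thyroid hormone receptor α gene, whose 3' end overlaps that of Nr1d1 on the opposite strand. This site (chromosome 11, 98626912 to 98627112) lay 9.68 kb from the Nr1d1 start and had 8.64 and 5.85 FPKM, against 1.12 and 1.60 in WT. Its ratio of 1.48 (1.09 to 2.02) was below the members' median of 3.13. Divided by the WT factor of all 29 °C windows, which were selected against WT at 29 °C, the ratio became 0.866. At 29 °C it exceeded WT by over 3 FPKM and was under 4 times WT. Among the 3 clock members, Bhlhe41 alone had a ratio of 2 or more.

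Of 48 genes of lipid synthesis, storage and use, 5 were linked to 7 members. The strongest lay at the end of the RNA gene 4732471J01Rik, 3.62 kb from the start of Lipe, which encodes hormone-sensitive lipase. It had 20.87 FPKM in the cold and 6.26 at thermoneutrality, against 2.77 and 3.0 in WT (ratio 3.34, 2.58 to 4.37). The end of the lipid droplet gene Plin5 had 9.18 and 2.97 FPKM (WT 1.48 and 1.80, ratio 3.10, 2.12 to 4.64) and was listed under its neighbour Plin4. Exon 14 of 19 of Cpt1a, the gene of the enzyme that admits fatty acids to mitochondrial oxidation, had 3.85 and 0.67 FPKM (WT 0.75 and 0.21, ratio 5.84, 2.74 to 14.3). Scd1 is described above and Hmgcs1 below, and Cpt1a, beyond the naming rule, was picked after its value was seen. In the insulin signalling list 1 of 16 genes had a member: an exon of 2310022A10Rik at -10.7 kb from Akt2, a kinase gene of the pathway, had 4.95 and 2.23 FPKM (ratio 2.23, 1.40 to 3.63).

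The 450 matched members lay in 425 genes, of which 17 held 2 members and 4 held 3. Cxcl9, a chemokine gene, had 3 in its 3' UTR within 1.38 kb, with 8.17, 8.79 and 10.67 FPKM at 4 °C and 2.07, 1.82 and 3.22 at 29 °C. Il17rc, the interleukin-17 receptor C gene, had 3 in exons 11, 15 and 16, with 8.40, 5.58 and 5.42 FPKM at 4 °C and 1.74, 1.98 and 1.41 at 29 °C, all listed under its neighbour Creld1. Urb1, a ribosome biogenesis gene, had 3 in exons 9, 13 and 38, with 8.24, 5.50 and 11.54 FPKM at 4 °C, the last of which was in the 29 °C list too and was listed under Mrap. All 9 of these sites had ratios of 2.82 to 4.86. Hmgcs1, which encodes HMG-CoA synthase of the cholesterol pathway, had 3 members on an unplaced contig of chromosome 13 (chr13_random). There 2 TTS windows at nearly equal distances from a start, 18.7 kb each, had 6.68 and 7.07 FPKM at 4 °C and 1.57 and 1.41 at 29 °C. Their ratios were 4.27 (2.57 to 7.43) and 5.05 (2.98 to 9.04). The 3' UTR window had 3.85 and 2.97 FPKM, a ratio of 1.30 (0.827 to 2.05) that became 0.901 and 0.761 with WT reads equal over shared and over all 29 °C windows. The TTS windows may be copies of 1 sequence in the assembly, so reads could be split between them, and the values are uncertain. The logs of the 12 libraries count 0 reads aligned more than once, and how reads from copied sequence were placed was not determined. Neighbouring windows within a gene share its chromatin and are not replicates.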

How the data were processed

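Groups came from the sample titles. The submitters' processing notes list Bowtie2 2.1.0, HOMER 4.10 and mm9, with no roles. Peak-calling settings, treatment of duplicate reads, the extent of a transcript end and whether peak starts count from 0 or 1 were not given in the sources used here. Per the file headers, the authors made 1 peak list per temperature on pooled libraries. The FPKM deposited by the authors hold 0.01 added to each value, from the values themselves. The peak score deposited by the authors is about 2 times the FPKM of the list's pool. Other columns deposited (distances in bases, FPKM differences) and the library logs are per the labels and headers as named. Members are all rows whose annotation, up to the bracket, is 1 of the 5 classes.

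After 0.01 was taken off, 100% of FPKM values lay within 0.01 FPKM of a whole number of reads, which gave each window's reads and each pool's size. Ratios are reads per read of the pool with exact 95% intervals, and a ratio of at least 2 was called. Scripts (Python 3.11.15, scipy 1.17.1) were tested on simulated data. The files hold peak FPKM of pools, without replicates, so no test between temperatures was made. They hold no gene expression. The alternatives were other scalings, limits and overlaps.

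Members and gene lists were chosen with earlier results of these data known. The text names, for each class, the 4 highest-scoring members at 4 °C and 2 at 29 °C, up to 4 list members per list, the 5 largest and 5 smallest ratios with at least 20 reads, and genes with 3 or more members. One site that this rule names is not reported here.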

Additional observations from a re-analysis of the deposited data

How the results depend on the processing

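No paired analysis was possible because the peak values come from pools, which carry no replicate numbers, and leaving out a replicate was not possible for the same reason. Splitting TTS sites at the transcript end was not run, since transcript ends of build mm9 were not used here. The share of the 4 °C list was 3.34% among peaks at least 8 times WT and 5.25% with 1 peak per gene, and that of the 29 °C list was 2.15% among peaks at least 6 FPKM above WT. The share of members overlapping a 29 °C peak was 16.9% at 6 FPKM above WT, 21.4% at 8 times WT and 34.4% among the 2183 highest-scoring 4 °C peaks. The members' median ratio was 2.17 and 1.83 with WT reads equal over shared and over all 29 °C windows (factors 1.44 and 1.71), 4.58 with WT subtracted, 2.93 at 8 times WT and 2.72 with at least 20 reads at 29 °C. For the 29 °C members it was 1.15 and 0.970 under those 2 scalings. At a fold of 3, 246 members were called (51.5% of all windows), and 184 at a fold of 2 with WT equal over all 29 °C windows (39.8% of all windows). Of 57 windows of the naming rule, 6 turned direction under the last scaling: Arntl (0.964, and 0.962 in its 29 °C window), Kif9 (0.977 in both lists), Thra (0.866) and the 3' UTR window of Hmgcs1 (0.761). Windows were counted once per list, so a site named in both lists enters for each. The Kif9 window is identical in both, and the Arntl windows overlap. Hmgcs1 turned over shared windows too (0.901), and Jade1 with WT subtracted (1.22). In both of these the interval included 1 from the start. WT subtraction moved 14 of 53 windows outside their intervals, to 13.8 at Spns1 and 15.8 at a Hmgcs1 window. The scalings moved more: 35 of 57 windows left their intervals with WT reads equal over shared windows. With WT reads equal over all 29 °C windows, 5 windows whose interval excluded 1 turned direction. Another 50 left their intervals and 2 stayed within. All 57 stayed within with WT reads equal over all 4 °C windows. The overlap share of exon sites was 25% in first exons (1 of 4) and 0% in last exons (0 of 28). The causes were not tested. The other alternatives for the list shares, the overlap share of all members, the medians and the count of ratios of 2 or more stayed within the intervals or, for the count, within 1.5 times. A pool of 60.8 M reads gives 0.247 FPKM for 3 reads, which limits ratios at low 29 °C values.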

Other observations

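At 9 TTS sites the transcript was a miRNA, so the site lay 221 to 998 bases from the start of a miRNA gene. The 4 °C density ran from 3.77 FPKM at Mir10b to 12.63 at Mir7687, and 29 °C peaks overlapped the sites of Mir6387 and Mir7212. The ratio was smallest at Mir7212, with 11.38 FPKM at 4 °C and 7.08 at 29 °C (1.61, 1.22 to 2.12), and largest at Mir10b, with 3.77 and 0.34 FPKM (11.4, 4.19 to 43.7). At Mir148b the values were 11.46 and 5.77 FPKM, and at Mir107 5.73 and 1.74. At Mir6539 the 29 °C value of 1.49 FPKM was below WT (1.80), with 10.44 at 4 °C. These genes were chosen after their values were seen, and the files hold no miRNA levels.

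WT density was near equal between temperatures over the 4 °C members as a whole, and less so by class. The summed WT density at 4 °C over that at 29 °C was 1.0 over the 452 windows and 1.02 over the other classes. It was 1.06 in 3' UTRs, 1.04 at TTS sites, 0.962 in exons, 0.917 in 5' UTRs and 0.867 in non-coding sites. In other windows WT was higher at 4 °C: the factor was 1.44 over shared windows and 1.71 over all 29 °C windows. Over the 71 sites of the 29 °C list the WT medians were 1.48 FPKM at 4 °C and 0.81 at 29 °C. The limit of each list against its own WT favours windows with low WT at that temperature.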
